A study of Gallus gallus with 8 samples.

Results

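The unfolded protein response and the folding machinery of the endoplasmic reticulum (ER) were followed through 40 listed genes in chick growth plate chondrocytes. A gene was taken where a probe set of the Affymetrix chicken array has a single symbol in the platform annotation. That symbol was replaced by the one of the RefSeq table where the gene was listed there. Where a gene had several such probe sets, the brightest by its mean of the 8 arrays stood for it. That gave 34 of the 40, among 13009 genes in all. ATF6, DDIT3, TRIB3, SYVN1, MANF and OS9 were matched to no such probe set and were not analysed here. The genes are grouped by function. The rule for taking a gene and its probe set used no difference between the groups, but the list was chosen with earlier results of these data known.

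The arrays carried total RNA from pooled chondrocytes of the tibiotarsus growth plate, the cartilage at the end of the main bone of the lower leg. There were 4 arrays of proliferative cells, which divide and lay down cartilage matrix, from chicks 3 weeks old, and 4 arrays of hypertrophic cells, which have enlarged ahead of mineralisation, from chicks 1 day old. No treatment or genotype is given for either group. Stage and age cannot be told apart. The labels do not say whether arrays of a group came from separate pools of cells, so the p-values reflect only how far these samples spread, and that spread may be technical. Values are deposited log2 values of the RMA method, and a difference is always hypertrophic minus proliferative on that scale.

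Secretory cells fold, join and check proteins inside the ER. When unfolded protein builds up there, the chaperone HSPA5 leaves the sensors EIF2AK3 (PERK), ERN1 (IRE1) and ATF6. PERK then slows translation and favours ATF4, IRE1 splices the messenger of XBP1, and ATF6 is cut into a transcription factor, which together raise chaperones, oxidoreductases and the proteins that remove misfolded chains. Chondrocytes secrete large amounts of collagen and aggrecan, and disturbance of this system is a known cause of growth plate disease in mammals.

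In hypertrophic cells 13 of the 34 genes fell and none rose by limma's moderated test with Benjamini-Hochberg adjustment over 38439 probe sets, while 21 did not pass. Of all 13009 genes, 5.6% fell and 7.34% rose in the same fit, or 728 and 955 genes; with each array centred on its ribosomal protein genes, which shifts the median of all genes by -0.15, these became 1336 and 806, and 16 of the 34 genes fell. By unadjusted p under 0.05, 18 of the 34 were lower and 0 higher, against 14% and 15.9% of all genes. The genes that fell were EIF2AK3, ERN1, ATF4, XBP1, HSPA5, HSP90B1, HYOU1, SDF2L1, CALR, PDIA4, PDIA6, TXNDC5 and HERPUD1, so each functional class of the list was represented. The median difference of the 34 was -0.57, against -0.01 over all genes, and 30 of the 34 estimates were negative, against 52.2% of all genes. A fall of at least 2-fold was estimated for 5 of the 13 (EIF2AK3, ERN1, SDF2L1, PDIA6 and HERPUD1), a limit that 2.45% of all genes met. Of the 7969 genes whose mean was at least that of the dimmest member, 7.98% fell, 296 of them by at least 2-fold. By unadjusted p under 0.05, 1483 of the 7969 were lower and 1556 higher. In bulk RNA fewer cells of a type and less RNA per cell cannot be told apart.

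On 16 of the 34 probe sets every hypertrophic array lay below every proliferative array, a pattern that 9.67% of all genes showed, and on 1, that of DERL1, every hypertrophic array lay above, as in 10.6% of all genes. The mean log2 value over the 34 genes was 9.95 to 10.14 on the proliferative arrays and 9.40 to 9.58 on the hypertrophic arrays, without overlap. The mean over all 13009 genes was 6.56 to 6.60 and 6.60 to 6.67.

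**Figure D1:**
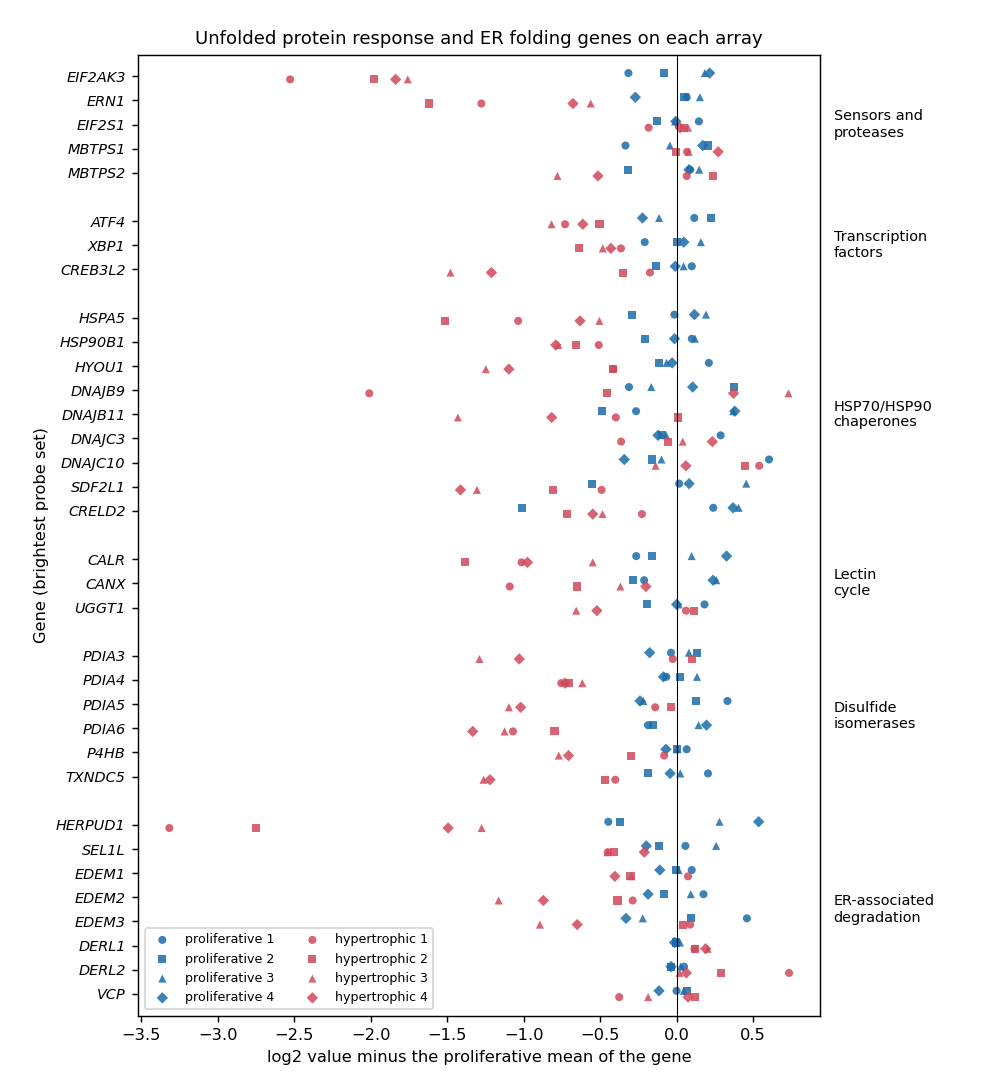
Log2 value of each of the 34 genes on each of the 8 arrays, minus the gene's proliferative mean; colour gives the group, marker shape the array number, and rows follow the functional classes. Hypertrophic points lie to the left of all proliferative points in 16 rows and to the right of them in the row of DERL1.

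The calls rest in part on how the arrays are counted. In each group arrays 3 and 4 were almost the same, with an SD of their difference of 0.18 among proliferative and 0.19 among hypertrophic arrays over 5344 bright probe sets, whereas the other pairs of arrays in a group gave 0.37 to 0.96. When the mean of arrays 3 and 4 was taken as 1 sample, 3 of the 34 genes fell, EIF2AK3, PDIA4 and PDIA6, and none rose, where 1.24% of all genes fell and 2.01% rose. With any 1 array left out, 5 to 15 of the 34 fell. The count was 5 without proliferative array 3 or 4, 7 without hypertrophic array 2, 8 without proliferative array 1 or hypertrophic array 4 and 15 without hypertrophic array 1, and the corresponding shares of all genes were 2.31%, 2.86%, 3.75%, 3.35%, 3.31% and 7.23%. EIF2AK3, ATF4, HSP90B1, PDIA4 and PDIA6 passed in all 8 of those fits.

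Other settings moved further calls. Under cyclic loess 9 of the 34 genes fell, where 5.05% of all genes did, and with array weights 19 fell, where 13% did. Arrays 3 and 4 had weights of 1.67 to 1.88 there, and arrays 1 and 2 had 0.27 to 0.93. With the pairs of arrays 1 and 2 and of arrays 3 and 4 as a block, 18 of the 34 fell and none rose, where 9.2% of all genes fell and 10.9% rose. All 13 genes passed there, and CANX, CREB3L2, EDEM2, P4HB and PDIA5 were added (adjusted p = 0.0144, 0.0424, 0.0215, 0.0418 and 0.0199). The p-values of the weighted fit and of this block fit are too small if the near-identical arrays 3 and 4 are not separate samples. HYOU1, TXNDC5 and XBP1 missed the threshold after a second quantile normalisation (adjusted p = 0.0675, 0.0908 and 0.0628) and after cyclic loess (0.0533, 0.0647 and 0.0901), and HSPA5 after cyclic loess alone of these (0.0512). HYOU1 also missed it with a variance trend (0.0523), and HYOU1 and XBP1 with the mean of a gene's probe sets (0.180 and 0.0522). With that mean 17 of the 34 genes fell, where 6.58% of all genes did. CANX, CREB3L2, EDEM1, EDEM3, P4HB and SEL1L were added there (adjusted p = 0.00820, 0.0172, 0.0407, 0.0253, 0.0148 and 0.0495). With the array number as a replicate block XBP1, SDF2L1 and TXNDC5 missed the threshold (0.0835, 0.0773 and 0.0507), while CANX passed (0.0499).

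Of the stress sensors, both measured kinases fell, where 5.6% of all genes did. EIF2AK3, the kinase PERK, which phosphorylates the translation factor eIF2, read 8.56, 8.79, 9.06 and 9.09 on proliferative arrays 1 to 4 and 6.35, 6.90, 7.12 and 7.04 on hypertrophic arrays 1 to 4. No array of one group reached the other, and the gene fell by 2.02 ± 0.19 (SE, n = 4 per group), or 4.07-fold, with adjusted p = 7.98e-04 in limma. By estimate this was the 22nd largest fall of the 13009 genes. ERN1, the kinase and endoribonuclease IRE1, read 8.24, 8.22, 8.32 and 7.90 on proliferative and 6.90, 6.55, 7.61 and 7.49 on hypertrophic arrays, lowest on hypertrophic arrays 1 and 2. It fell by 1.03 ± 0.23, or 2.05-fold (adjusted p = 0.0278 in limma). A second ERN1 probe set above background fell too, by 0.79 ± 0.13 (adjusted p = 0.00824). The brightest ERN1 probe set missed the threshold without any 1 of proliferative arrays 1 to 4 or hypertrophic array 2 (adjusted p from 0.0513 to 0.0873), and with arrays 3 and 4 averaged (adjusted p = 0.0716).

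The substrate of PERK and the proteases that cut ATF6 did not pass. EIF2S1, the alpha subunit of eIF2, read 10.89, 10.61, 10.73 and 10.74 on proliferative and 10.56, 10.79, 10.82 and 10.76 on hypertrophic arrays. These ranges overlapped almost fully, and the difference of -0.01 ± 0.11 had a 95% interval of -0.25 to 0.23, with a sign that turned under a second quantile normalisation and under cyclic loess. MBTPS1, the site-1 protease, differed by 0.10 ± 0.14 with an interval of -0.21 to 0.42, and its estimate turned negative when arrays were centred on ribosomal proteins. MBTPS2, the site-2 protease, differed by -0.25 ± 0.23 with an interval of -0.77 to 0.27. Its hypertrophic values were 5.78, 5.95, 4.93 and 5.20, with arrays 1 and 2 inside or above the proliferative range of 5.40 to 5.86 and arrays 3 and 4 below it.

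On its brightest probe set each measured transcription factor was lower on every hypertrophic array than on any proliferative array. That pattern was shown by 9.67% of all genes. ATF4 and XBP1 passed the test. ATF4, the factor whose translation PERK favours, read 12.96, 13.07, 12.73 and 12.62 on proliferative and 12.11, 12.34, 12.03 and 12.23 on hypertrophic arrays. It fell by 0.67 ± 0.13, or 1.59-fold (adjusted p = 0.0162 in limma). Another bright ATF4 probe set fell by 0.93 ± 0.12 (adjusted p = 0.00255), while a dimmer one differed by 0.14 ± 0.15 and did not pass. With arrays 3 and 4 averaged the first had adjusted p = 0.0757.

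XBP1, the factor made active by IRE1, read 11.43, 11.64, 11.79 and 11.68 on proliferative and 11.27, 10.99, 11.15 and 11.21 on hypertrophic arrays, a fall of 0.48 ± 0.11 or 1.39-fold (adjusted p = 0.0345 in limma). The array measures the gene's total signal here and the spliced form was not analysed. The other XBP1 probe set, nearly as bright, gave -0.52 ± 0.19, short of the threshold (adjusted p = 0.137), and its groups overlapped. The call held only without proliferative array 1 or hypertrophic array 1 among the fits that leave out 1 array; without any of the other 6, adjusted p ran from 0.0664 to 0.105, and it was 0.180 with arrays 3 and 4 averaged. CREB3L2, an ER-bound factor that in mice drives the secretory machinery of chondrocytes, read 12.15, 11.92, 12.10 and 12.04 on proliferative and 11.88, 11.70, 10.57 and 10.84 on hypertrophic arrays. Its brightest probe set was much lower on hypertrophic arrays 3 and 4 than on 1 and 2, and the difference of -0.80 ± 0.28 did not pass (adjusted p = 0.115). It passed without hypertrophic array 1, with array weights, with the array pairs as a block, on arrays 3 and 4 alone and for the mean of its probe sets (adjusted p = 0.0281, 0.00451 and 0.0424 in the first 3 of these). Of its 5 other probe sets 3 fell, by 1.20 ± 0.12, 1.06 ± 0.11 and 0.94 ± 0.21 (adjusted p = 8.50e-04, 0.00124 and 0.0274).

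Among 9 measured chaperones of the HSP70 and HSP90 systems and their partners, 4 fell and 5 did not pass, where 5.6% of all genes fell. The median difference of the 9 was -0.66. HSPA5, the ER HSP70 also called BiP, read 12.91, 12.64, 13.12 and 13.05 on proliferative and 11.89, 11.41, 12.42 and 12.30 on hypertrophic arrays. The groups did not overlap, hypertrophic array 2 was lowest, and the gene fell by 0.92 ± 0.22, or 1.89-fold (adjusted p = 0.0354 in limma). HSP90B1, the ER HSP90 known as GRP94, read 12.40, 12.09, 12.42 and 12.28 and 11.79, 11.64, 11.52 and 11.51 in the same order of arrays. It fell by 0.68 ± 0.12, or 1.61-fold (adjusted p = 0.00901), and on a second, dimmer probe set it fell by 1.27 ± 0.20 (adjusted p = 0.00763). HYOU1, the large HSP70 relative that exchanges nucleotide on HSPA5, had values of 10.18, 9.86, 9.91 and 9.94 in proliferative and 9.56, 9.56, 8.73 and 8.88 in hypertrophic cells. It was lowest on hypertrophic arrays 3 and 4 and fell by 0.79 ± 0.21 (adjusted p = 0.0472), while its other probe set gave -0.55 ± 0.37 and missed the threshold (adjusted p = 0.462).

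SDF2L1, a partner of the HSPA5 and DNAJB11 complex, read 6.90, 6.33, 7.34 and 6.96 on proliferative and 6.39, 6.07, 5.58 and 5.47 on hypertrophic arrays. The lowest proliferative and the highest hypertrophic values crossed, and the gene fell by 1.00 ± 0.26 (adjusted p = 0.0451 in limma). Among the 8 fits that leave out 1 array, HSPA5 passed only without proliferative array 2 or hypertrophic array 3 (otherwise adjusted p from 0.0502 to 0.107). In the same 8 fits HYOU1 passed only without hypertrophic array 1 or 2 (otherwise 0.0780 to 0.120), and SDF2L1 only without proliferative array 2 or hypertrophic array 1 (otherwise 0.0790 to 0.124). With arrays 3 and 4 averaged, HSPA5, HSP90B1, HYOU1 and SDF2L1 had adjusted p = 0.115, 0.0859, 0.210 and 0.232.

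The measured J-domain cochaperones, which pass substrates to HSPA5, did not pass the test. Whether their differences depart from that of HSPA5 was not tested. DNAJB9 read 8.82, 9.50, 8.96 and 9.23 on proliferative and 7.12, 8.67, 9.86 and 9.50 on hypertrophic arrays. Hypertrophic array 1 held its lowest and hypertrophic array 3 its highest value of all 8, and the difference of -0.34 ± 0.52 had an interval of -1.51 to 0.83, with a positive estimate without hypertrophic array 1. DNAJB11 read 8.08, 7.86, 8.71 and 8.72 and 7.94, 8.35, 6.91 and 7.53, with hypertrophic arrays 3 and 4 below all others (-0.66 ± 0.32, adjusted p = 0.271). DNAJC3, which also inhibits PERK, differed by -0.04 ± 0.15, with an interval of -0.38 to 0.31 and a sign that turned under cyclic loess. The ER reductase DNAJC10 differed by 0.23 ± 0.23 with an interval of -0.29 to 0.75. CRELD2, a luminal protein induced by ER stress, differed by -0.49 ± 0.30 (adjusted p = 0.399); its proliferative values were 8.06, 6.81, 8.23 and 8.19, and without proliferative array 2 it passed (adjusted p = 0.0133).

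The lectin chaperones hold glycoproteins during folding. CALR, the soluble lectin calreticulin, read 10.07, 10.18, 10.43 and 10.66 on proliferative and 9.32, 8.95, 9.79 and 9.36 on hypertrophic arrays. The groups did not overlap and it fell by 0.98 ± 0.19, or 1.97-fold (adjusted p = 0.0176 in limma), but it missed the threshold without proliferative array 3 or 4 (adjusted p = 0.0604 and 0.0537) and when arrays 3 and 4 were averaged (0.0723). CANX, the membrane lectin calnexin, read 10.56, 10.48, 11.03 and 11.01 and 9.68, 10.12, 10.40 and 10.57, and the highest hypertrophic value passed the lowest proliferative one. Its difference of -0.58 ± 0.21 did not pass (adjusted p = 0.144), though it did with the array pairs as a block, as given above. The other CANX probe set, nearly as bright, did fall, by 0.76 ± 0.15 (adjusted p = 0.0153). UGGT1, the folding sensor that returns glycoproteins to both lectins, differed by -0.25 ± 0.19, with an interval of -0.68 to 0.18.

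All 6 disulfide isomerases had negative differences, with a median of -0.64, against 52.2% of all genes with a negative difference. Of the 6, 3 fell, where 5.6% of all genes did. PDIA6 read 11.57, 11.60, 11.90 and 11.95 on proliferative and 10.69, 10.96, 10.63 and 10.42 on hypertrophic arrays. It fell by 1.08 ± 0.15, or 2.12-fold (adjusted p = 0.00356 in limma), with a gap between the groups wider than the range within either. PDIA4 read 11.43, 11.52, 11.63 and 11.41 and 10.74, 10.79, 10.88 and 10.77, again without overlap, and fell by 0.70 ± 0.10, or 1.63-fold (adjusted p = 0.00362). Both still passed with arrays 3 and 4 averaged (adjusted p = 0.0429 and 0.0358), although the other PDIA4 probe set, at -0.38 ± 0.21, missed the threshold (adjusted p = 0.331).

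TXNDC5, an isomerase also called ERp46, read 12.41, 12.01, 12.22 and 12.16 on proliferative and 11.80, 11.73, 10.94 and 10.98 on hypertrophic arrays, a fall of 0.84 ± 0.22 or 1.79-fold (adjusted p = 0.0468 in limma). Its 2 lowest values were those of hypertrophic arrays 3 and 4, and among the fits that leave out 1 array it passed only without hypertrophic array 1 (otherwise adjusted p from 0.0503 to 0.120). The other TXNDC5 probe set gave -1.02 ± 0.43 and missed the threshold (adjusted p = 0.196). That probe set was instead lowest on hypertrophic array 1, with differences of -1.58 on arrays 1 and 2 and -0.47 on arrays 3 and 4. P4HB, the isomerase that is also the beta subunit of collagen prolyl 4-hydroxylase, read 13.75, 13.69, 13.69 and 13.62 and 13.61, 13.39, 12.92 and 12.98. The groups did not overlap, but the difference of -0.46 ± 0.16 did not pass (adjusted p = 0.116). It passed without hypertrophic array 1, with array weights, with the array pairs as a block, on arrays 3 and 4 alone and for the mean of both probe sets (adjusted p = 0.0219, 0.00591 and 0.0418 in the first 3 of these). On the other P4HB probe set the gene fell by 1.19 ± 0.24 (adjusted p = 0.0197). PDIA3, which works with the lectins, read 11.32, 11.49, 11.44 and 11.18 and 11.33, 11.46, 10.07 and 10.33. Hypertrophic arrays 1 and 2 lay within the proliferative range and arrays 3 and 4 below it (-0.56 ± 0.30, adjusted p = 0.330). PDIA5 differed by -0.57 ± 0.27 (adjusted p = 0.251), and it too passed with the array pairs as a block.

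Of 8 measured genes of ER-associated degradation, which carries misfolded chains to the proteasome, HERPUD1 alone fell, and the median difference was -0.29. That is 12.5% of the class, where 5.6% of all genes fell. HERPUD1, a membrane protein of the retrotranslocation complex and a known target of the stress response, read 10.64, 10.72, 11.37 and 11.63 on proliferative and 7.77, 8.34, 9.82 and 9.60 on hypertrophic arrays. Hypertrophic arrays 1 and 2 were the lowest, and the gene fell by 2.21 ± 0.45, or 4.62-fold (adjusted p = 0.0202 in limma), by estimate the 13th largest fall of the 13009 genes. Its other probe sets fell by 2.87 ± 0.57 and 2.22 ± 0.46 (adjusted p = 0.0176 and 0.0203). The brightest missed the threshold without proliferative array 3 or 4 or hypertrophic array 2 (adjusted p = 0.0667, 0.0638 and 0.0592), and its value was 0.0723 once arrays 3 and 4 were averaged.

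The ubiquitin ligase adaptor SEL1L differed by -0.38 ± 0.13, short of the threshold (adjusted p = 0.103), while another of its probe sets fell by 0.95 ± 0.24 (adjusted p = 0.0454). EDEM1, EDEM2 and EDEM3, which mark glycoproteins for removal by trimming their mannose, differed by -0.23 ± 0.12, -0.68 ± 0.20 and -0.35 ± 0.26, with adjusted p = 0.325, 0.0720 and 0.507. A second EDEM1 probe set fell by 0.62 ± 0.11 (adjusted p = 0.0135), and EDEM2 passed with the array pairs as a block and when hypertrophic array 1 was left out (adjusted p = 0.0251 in the latter). SEL1L, EDEM1 and EDEM3 passed for the mean of their probe sets, as given above. The channel proteins DERL1 and DERL2 had positive differences of 0.16 ± 0.08 and 0.28 ± 0.16, with intervals of -0.04 to 0.35 and -0.08 to 0.63. VCP, the ATPase that pulls chains from the membrane, differed by -0.09 ± 0.13, with an interval of -0.39 to 0.20.

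**Figure D2:**
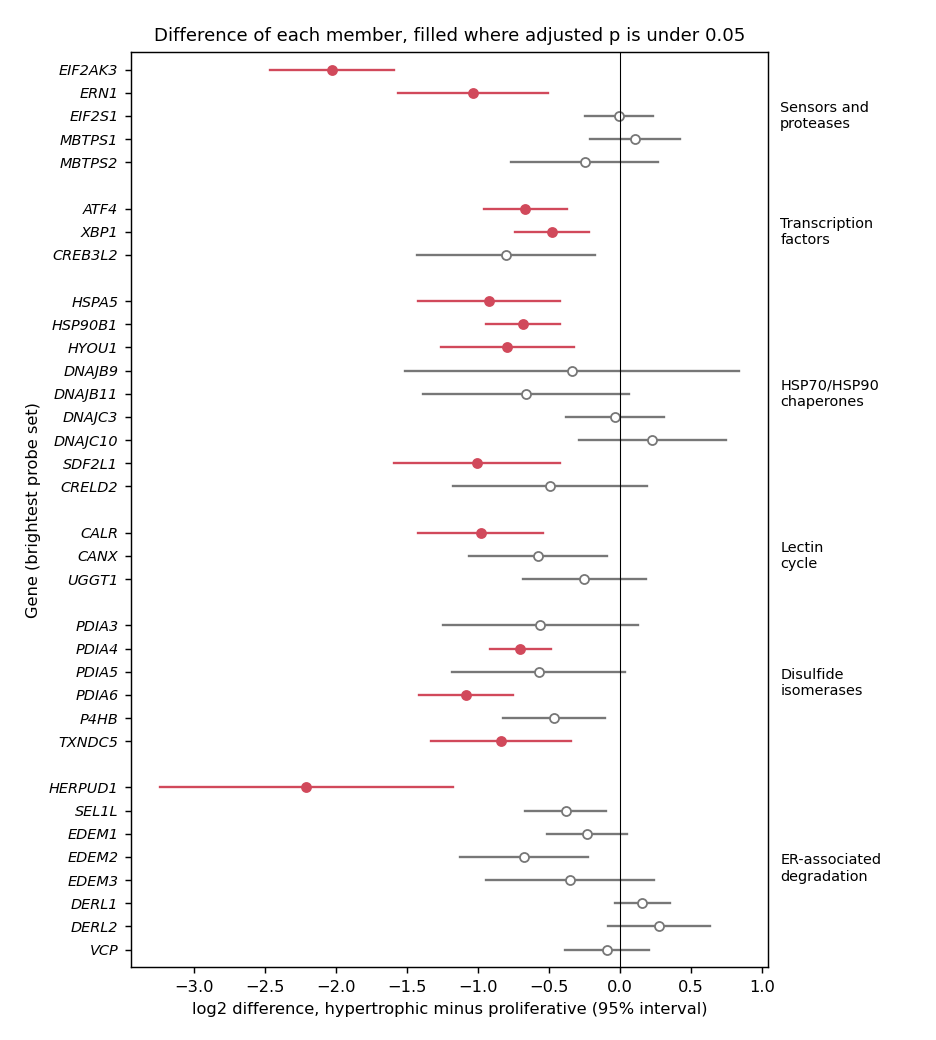
Log2 difference of each of the 34 genes, hypertrophic minus proliferative, with its 95% interval from the limma fit (n = 4 arrays per group), in the order of the functional classes. The 13 filled points passed the adjusted test and all lie below 0; the 4 estimates above 0 are those of MBTPS1, DNAJC10, DERL1 and DERL2, whose intervals include 0.

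The 34 genes have 74 probe sets, and 40 of these do not represent a gene. Of the 40, 13 fell and none rose, where 4.27% of all 38439 probe sets fell and 4.49% rose. A mean above the background level was held by 30 of the 40, and 12 of these 30 fell. The share of all probe sets above background that fell was not computed. Counting a gene as lower where any probe set above background fell, a rule chosen after seeing the data, 18 of the 34 genes were lower, with CANX, CREB3L2, EDEM1, P4HB and SEL1L added, and 0 higher, against 7.19% and 7.62% of all genes by the same rule.

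The members did not all fall on the same arrays. Arrays 1 and 2 differ from arrays 3 and 4 in both groups: the actin control's 3′ minus 5′ log2 value was 1.35 to 1.90 on arrays 1 and 2 and 0.86 to 1.06 on arrays 3 and 4. The GAPDH control did not separate the pairs in that way, at -0.53 to -0.06 on arrays 1 and 2 and -0.49 to -0.44 on arrays 3 and 4. Cell markers, described below, also differed. Cycling cell markers had mean log2 values of 8.36 and 8.02 on hypertrophic arrays 1 and 2 and 7.15 and 7.14 on 3 and 4. Hypertrophic markers had 8.39 and 9.28 on proliferative arrays 1 and 2 and 9.78 and 9.89 on 3 and 4. Osteoclast markers had 7.57 and 7.14 on hypertrophic arrays 1 and 2 and 6.89 and 6.94 on 3 and 4. Leukocyte markers had 6.33 and 6.02 and then 5.75 and 5.69 on those arrays. Osteoblast markers had 7.55 and 7.93 on proliferative arrays 1 and 2 and 8.70 and 8.79 on 3 and 4. The pairs were not separated by cycling markers on proliferative arrays (8.91 to 9.15). On hypertrophic arrays they were not separated by hypertrophic markers (10.29 to 10.80) or endothelial markers (6.53 to 6.78). The part of these controls and markers in the results was not tested. All 13 genes that fell had a negative difference within each pair of arrays, and 24 of the 34 did, against 33.2% of all genes. On arrays 1 and 2 alone 3 of the 34 fell, EIF2AK3, ERN1 and HERPUD1, and 2.14% of all genes did. On arrays 3 and 4 alone 24 fell and 1, DNAJB9, rose, while 17% of all genes fell and 18.1% rose. Those arrays were almost the same within each group, so p-values from them alone are too small if they are not separate samples. The median difference of the 34 was -0.35 on arrays 1 and 2 and -0.70 on arrays 3 and 4. EIF2AK3 had differences of -2.051 and -1.997 on the 2 pairs, PDIA4 had -0.71 and -0.70, and CALR had -0.99 and -0.97. In these genes the pairs gave nearly the same size.

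A fit with the interaction of group and array pair, chosen after seeing the data, tested whether the difference was the same on both pairs. It was more negative on arrays 3 and 4 in 3 of the 34 genes, where 1.74% of all genes passed in that direction, and more positive in none, where 1.92% did. DNAJB11 had differences of 0.18 on arrays 1 and 2 and -1.50 on arrays 3 and 4 (change -1.68 ± 0.32, adjusted p = 0.0350 in limma). CREB3L2 had -0.25 and -1.36 (change -1.12 ± 0.23, adjusted p = 0.0460), and PDIA3 had -0.01 and -1.11 (change -1.10 ± 0.24, adjusted p = 0.0494). The near-identity of arrays 3 and 4 makes these p-values too small if the arrays are not separate samples. On the other CREB3L2 probe sets the change did not pass. The brighter of them had -1.24 and -1.16, -0.46 and -1.42, and -1.06 and -1.06 on the pairs. The dimmer had 0.04 and -0.99, and -0.43 and -0.67. HERPUD1, ERN1 and HSPA5 had more negative differences on arrays 1 and 2, with -2.62 against -1.79, -1.51 against -0.56 and -1.12 against -0.72, but the change did not pass (adjusted p = 0.182, 0.104 and 0.534). The other HERPUD1 probe sets had the same order, with -2.99 against -2.75 and -2.38 against -2.07. The other ERN1 probe set above background had the reverse order, with -0.71 against -0.87, and its change did not pass. DNAJB9 had -1.26 and 0.58, the only member with opposite signs of over 0.5, and did not pass either (adjusted p = 0.163). Its other probe sets gave smaller positive values on arrays 3 and 4, with -1.31 and 0.18 on one and -1.12 and 0.09 on the other. The SD was larger among hypertrophic than among proliferative arrays in 26 of the 34 genes and in 63.8% of all genes.

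**Figure D3:**
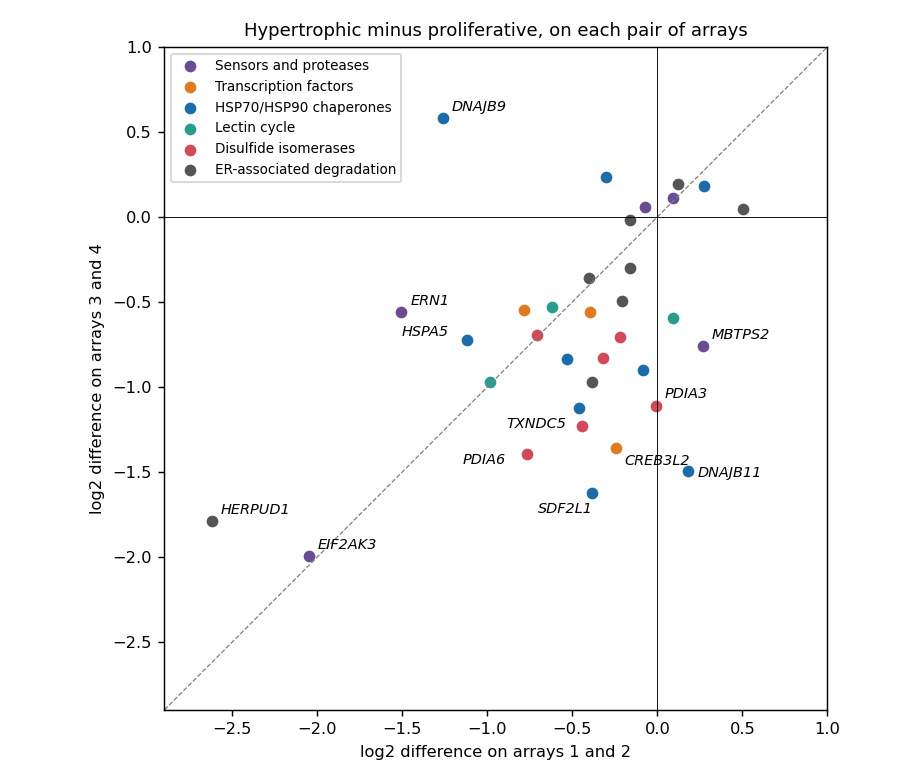
Log2 difference of the brightest probe set of each of the 34 genes on arrays 3 and 4 (vertical) against arrays 1 and 2 (horizontal). Colour gives the functional class, and the dashed line marks equal differences. EIF2AK3 lies on the line, HERPUD1, ERN1, HSPA5 and DNAJB9 lie above it, and CREB3L2, DNAJB11 and PDIA3 lie below it.

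Further genes of the pathway were taken from 5 lists of 126 genes, of which 103 were measured. Of these 12 fell, 3 rose and 88 did not pass, with a median difference of -0.21, against 5.6% of all genes lower and 7.34% higher. With 1 array left out 2 to 15 fell and 0 to 6 rose. The count was 2 lower without proliferative array 3 or 4, where 2.31% and 2.86% of all genes fell, and 15 lower without hypertrophic array 1, where 7.23% did. In stress signalling and translation control 1 of 18 genes fell, none rose, and the median was 0.07; by unadjusted p, 2 were lower and 4 higher, against 14% and 15.9% of all genes. PPP1R15B, the phosphatase subunit that reverses the action of PERK on eIF2, read 10.05, 10.34, 10.14 and 9.97 on proliferative and 9.15, 9.09, 9.15 and 9.43 on hypertrophic arrays. It fell by 0.92 ± 0.12 (adjusted p = 0.00335 in limma), passed in all 8 fits that leave out 1 array, and was the only gene of the 5 lists to pass with arrays 3 and 4 averaged (adjusted p = 0.0278).

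Targets of ATF4 and of the amino acid response went in both directions, with 3 of 14 higher and 3 lower and a median of -0.10. The folate enzyme MTHFD2 fell by 1.41 ± 0.36, the amino acid transporter SLC7A5 fell by 1.39 ± 0.35 and the glutathione-degrading enzyme CHAC1 fell by 1.00 ± 0.22 (adjusted p = 0.0437, 0.0406 and 0.0266 in limma). The secreted hormone stanniocalcin 2, STC2, rose by 1.48 ± 0.35, the lipoprotein receptor VLDLR by 1.20 ± 0.30 and the serine synthesis enzyme PHGDH by 0.72 ± 0.18 (adjusted p = 0.0330, 0.0390 and 0.0446). None of the 6 passed in every fit that leaves out 1 array. All missed the threshold without proliferative array 3, proliferative array 4 or hypertrophic array 2. CHAC1 and MTHFD2 also missed it without proliferative array 2, PHGDH and MTHFD2 without proliferative array 1, VLDLR without hypertrophic array 3, and VLDLR and PHGDH without hypertrophic array 4. Of these fits SLC7A5 passed only without proliferative array 2, and STC2 only without hypertrophic array 1. The highest adjusted p was 0.0849 in CHAC1 and 0.0911 to 0.121 in the other 5.

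Of all genes 5.6% fell and 7.34% rose, and of the 7969 genes at least as bright as the dimmest member 7.98% fell. The translocon, signal peptide and N-glycan transfer list had 2 of 28 genes lower, or 7.14%, none higher, and a median of -0.27. These were the signal recognition particle subunit SRP68, which fell by 0.77 ± 0.15 (adjusted p = 0.0152 in limma), and the receptor subunit SRPRA, which fell by 0.78 ± 0.20 (adjusted p = 0.0425). Of 22 other folding enzymes 4 fell and none rose, with a median of -0.35. The proline isomerase PPIC fell by 0.80 ± 0.13 (adjusted p = 0.00890), the oxidase ERO1B fell by 0.82 ± 0.22, the partner of UGGT1 SELENOF fell by 0.66 ± 0.16 and the proline isomerase FKBP9 fell by 0.57 ± 0.15 (adjusted p = 0.0483, 0.0323 and 0.0438). Of 21 further degradation genes 2 fell, or 9.52%, and none rose, with a median of -0.13. The membrane selenoprotein SELENOK fell by 0.55 ± 0.12 and the ubiquitin-conjugating enzyme UBE2K by 0.39 ± 0.09 (adjusted p = 0.0232 and 0.0312). By unadjusted p under 0.05 these 3 lists held 9, 9 and 6 lower and 0, 0 and 3 higher genes, against 14% and 15.9% of all genes. Among the 7969 brighter genes 1483 were lower and 1556 higher by that limit. Of the 8 genes named here PPIC passed in every fit that leaves out 1 array. In those fits SRP68 missed the threshold without proliferative array 3 or 4 (adjusted p = 0.0512 in both), SELENOK without those or hypertrophic array 3 or 4 (up to 0.0751), SELENOF without proliferative array 1, 3 or 4 or hypertrophic array 3 or 4 (up to 0.0996), and SRPRA passed only without hypertrophic array 1 or 2, ERO1B only without proliferative array 2, and FKBP9 and UBE2K only without hypertrophic array 1.

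**Figure D4:**
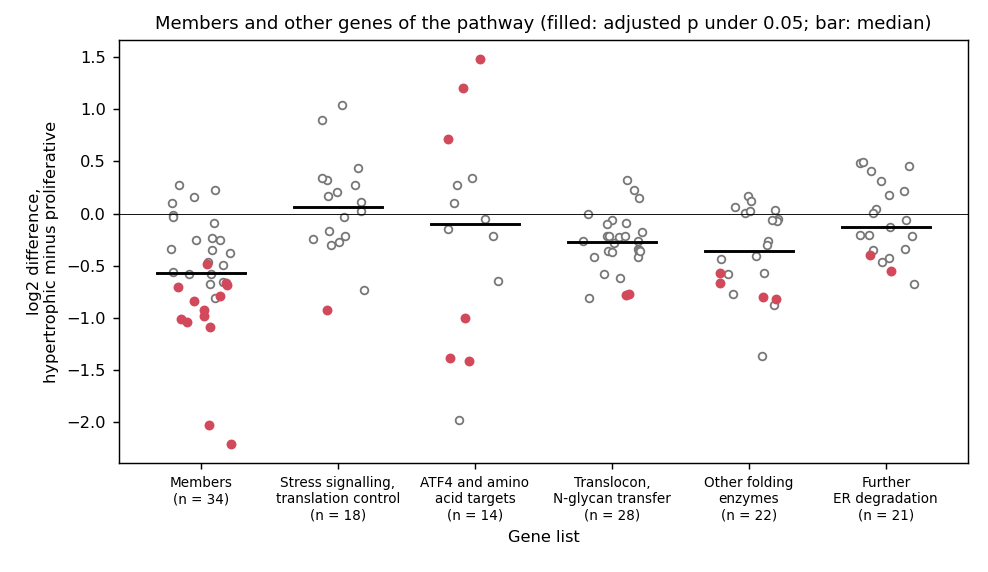
Log2 difference, hypertrophic minus proliferative, of the 34 members and of the 5 lists of other pathway genes; filled points passed the adjusted test and bars mark medians. The members' median lies at -0.57, and those of the other lists between -0.35 and 0.07.

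Markers of cell identity were read on the same arrays, where 7.34% of all genes rose and 5.6% fell. Cartilage genes were strong in both groups, with COL2A1 at means of 14.66 and 14.47 and ACAN at 14.27 and 14.01 in proliferative and hypertrophic cells, and 1 of 9 chondrocyte markers fell. Of 8 hypertrophic markers 2 rose, MMP13 and SPP1, while COL10A1 was high in both groups, at 13.40 and 14.06, with overlapping values. Of 5 cycling cell markers 3 fell. Among other cell types, 4 of 10 endothelial, 3 of 8 osteoclast and 2 of 8 leukocyte markers rose, and 1 leukocyte marker fell. Their summed linear levels ran from 636 to 860 on proliferative and 1112 to 1394 on hypertrophic arrays for endothelial markers, from 887 to 1779 and 3841 to 7157 for osteoclast markers, and from 280 to 375 and 742 to 1454 for leukocyte markers. CDH5, the endothelial cadherin, rose by 3.06 ± 0.33 (adjusted p = 0.00131 in limma), MMP9 of osteoclasts rose by 3.41 ± 0.75 (adjusted p = 0.0255), and LAPTM5 and CD74 of leukocytes rose by 2.96 ± 0.32 and 1.66 ± 0.43 (adjusted p = 0.00129 and 0.0453). PECAM1 of endothelium and CTSK of osteoclasts differed by 0.60 ± 0.42 and 1.08 ± 0.41 and did not pass. PTPRC, the defining leukocyte gene, KDR of endothelium and CALCR and DCSTAMP of osteoclasts had both means below the background level of 4.75, as had JCHAIN and POU2AF1 of antibody-secreting cells. Of 4 measured markers of those cells 1 rose, IRF4, and none of 4 red blood cell and 6 osteoblast markers passed, although osteoblast marker levels summed to 5295 to 8315 on proliferative and 11311 to 13129 on hypertrophic arrays. The part of other cell types in the lower values of the 34 genes was not tested.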

How the data were processed

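RNA of 4 proliferative and 4 hypertrophic chondrocyte samples was hybridised to 1-colour Affymetrix chicken arrays. The deposited values are log2 expression made by the authors with RMA, which corrects background, normalises quantiles and summarises probes, per the submitters' processing notes; its software version is not given in the sources used here. Of 38535 probe sets 96 controls were left out. Of the other 38439, 27168 had 1 gene symbol and 177 several in the platform annotation, and 26853 symbols came from the RefSeq table. Members and lists were chosen with earlier results of these data known, and the named-gene rule gave values on every array for members past the threshold, for sensors and for transcription factors, and for other pathway genes up to 4 past the threshold per list; array values of further members were added after seeing them.

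Groups were compared with lmFit and eBayes (limma 3.58.1, R 4.3.3), two-sided, at a Benjamini-Hochberg adjusted p of 0.05 over all tested probe sets, and intervals are 95%. The background level of 4.75 is the highest array's 95th percentile of 744 viral and reporter probe sets. The number of arrays limits precision. Data were simulated for this comparison over 38439 probe sets, with arrays drawn independently and the same spread in both groups. The fit recovered 62% of 100 probe sets changed by 1 on the log2 scale and 92% of 100 changed by 2. There were 8 false calls among 162. The real groups each hold near-identical arrays, and most genes spread more widely among hypertrophic arrays. These rates may therefore not hold for the real arrays. Alternatives were a filter on dim probe sets, other normalisations, variance models, array weights, blocks, array subsets and the mean of a gene's probe sets.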

Additional observations from a re-analysis of the deposited data

Results flagged for a closer look

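Of 68 groups of 4 arrays, 4 held an array far from the other arrays of its group, and chance does so in about 1 in 20 groups. CRELD2 read 6.81 on proliferative array 2, below the other proliferative arrays at 8.06 to 8.23. MBTPS2 read 5.40 on the same array, below the others at 5.79 to 5.86. DNAJC3 read 9.80 on proliferative array 1, above the others at 9.39 to 9.44. SEL1L read 9.17 on hypertrophic array 4, above the others at 8.93 to 8.97.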

How the results depend on the processing

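Of the 34 genes, 9 to 19 fell and none rose under the filter, both further normalisations, ribosomal protein centring, the variance trend, array weights, either block and the mean of probe sets. Under those settings 5.03% to 13% of all genes fell. Of the 34, 3 fell and 0 rose with arrays 3 and 4 averaged, 3 and 0 on arrays 1 and 2 alone, and 24 and 1 on arrays 3 and 4 alone. In these fits 1.24%, 2.14% and 17% of all genes fell. Leaving out 1 array gave 5 to 15 lower. Of the 103 other pathway genes, 12 fell and 3 rose; the counts were 6 and 5 under cyclic loess, 22 and 2 with ribosomal protein centring, 36 and 9 with array weights, 1 and 0 with arrays 3 and 4 averaged, 18 and 7 with arrays 1 and 2 against 3 and 4 as a block, 5 and 0 on arrays 1 and 2 alone, 40 and 15 on arrays 3 and 4 alone, and 2 to 15 and 0 to 6 without 1 array. Of all genes 728 fell and 955 rose; the counts were 1336 and 806 with ribosomal protein centring, 1694 and 1973 with array weights, 161 and 261 with arrays 3 and 4 averaged, 1197 and 1418 with the block of array pairs, 278 and 309 on arrays 1 and 2 alone, 2211 and 2356 on arrays 3 and 4 alone, and 301 to 941 and 484 to 1562 without 1 array. The fits to 1 array pair and to averaged arrays hold fewer samples, and otherwise the cause was not tested. Calls on arrays 3 and 4 alone rest on p-values that are too small if these near-identical arrays are not separate samples. The same holds for calls with array weights and with the block of array pairs.

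Signs turned only in genes that did not pass in the fit to all 8 arrays. Differences became 0.032, 0.055, 0.028 and 0.056 for EIF2S1 under quantile normalisation, cyclic loess, array weights and arrays 3 and 4 alone; 0.020, 0.11, 0.23 and 0.036 for DNAJC3 under loess, array weights, arrays 3 and 4 alone and the mean of probe sets; and 0.29 and 0.58 for DNAJB9 under array weights and arrays 3 and 4 alone. They were -0.048 for MBTPS1 under ribosomal protein centring, and on arrays 1 and 2 alone 0.18 for DNAJB11, 0.27 for MBTPS2 and 0.093 for UGGT1. Leaving out 1 array gave -0.70 to 0.22 for DNAJB9 and -0.16 to 0.0027 for VCP (positive without hypertrophic array 1), -0.13 to 0.072 for DNAJC3 and -0.053 to 0.048 for EIF2S1 (positive without array 1 of either group), and -0.0085 to 0.17 for MBTPS1 (negative without proliferative array 1).

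The array numbers are shared by the groups, but same-numbered arrays did not all deviate together (correlations 0.15, 0.01, 0.22 and -0.01 for arrays 1 to 4), and not every array correlated best with its own number. With the number as a replicate block 11 of the 34 genes fell and none rose, 10 and 3 of the other pathway genes fell and rose, and 684 and 867 of all genes.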
